A study of Mus musculus with 36 samples.

Results

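The thioredoxin and peroxiredoxin system was followed in BV-2 cells, an immortalised wild-type mouse microglial line, through 9 genes chosen by name. The 9 were the rows of the deposited tables whose symbol was Srxn1, Txnrd1, Txn1, Prdx1, Prdx2, Prdx3, Prdx5, Prdx6 or Txnip, out of 19879 genes listed in all. Each of the 9 passed the filter on low counts in every comparison, so no member dropped out of any test.

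Peroxiredoxins are abundant enzymes that reduce hydrogen peroxide with a cysteine residue, which becomes oxidised in the reaction. Thioredoxin, the product of Txn1, reduces that cysteine again, and thioredoxin reductase 1 (Txnrd1), a selenoenzyme, recharges thioredoxin with electrons from NADPH. Sulfiredoxin (Srxn1) rescues peroxiredoxins whose cysteine has been overoxidised, and Txnip is a protein that binds and inhibits thioredoxin. Srxn1, Txnrd1 and Prdx1 are textbook targets of the transcription factor Nrf2, and microglia use this system to withstand the oxidants they make when activated.

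Poly(A) RNA was sequenced from 6 treatments at 4 h and at 24 h, with 3 libraries for each of the 12 groups and 36 in all, and the cells were moved to low serum immediately before treatment. A pair of treatments held vehicle only, DMSO or ethanol (EtOH). The third was lipopolysaccharide at 600 ng/mL (LPS, a bacterial cell wall component that activates microglia), and the others added a drug to LPS: 30 µM dimethyl fumarate (DMF), 30 µM monomethyl fumarate (MMF) or 6 µM cannabidiol (CBD). DMF and MMF were dissolved in DMSO and CBD in EtOH, with the vehicle at 0.2% throughout. DMF is the dimethyl ester of fumaric acid and MMF the monomethyl ester, which is also what DMF is turned into in the body. Every drug group also received LPS, so none shows a drug in resting cells. The labels do not say which vehicle the LPS group received. The groups with LPS carry replicate numbers 1 to 3 and the vehicle groups 4 to 6, so LPS and the set of numbers cannot be told apart. The cells are a single line in culture, and the experiment was repeated 3 times.

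Counted reads ranged from 14.1 M to 26.7 M, and the median library had 16.2 M. All 10 microglia and macrophage markers on a fixed list had reads in every library, among them Csf1r at 282 to 902 and Ptprc at 400 to 939 CPM (counts scaled to the library total). Tmem119 and P2ry12, markers of microglia in the brain, stayed at or below 13.0 and 6.13 CPM. The neuronal marker Rbfox3 was at 0 in 31 of 36 libraries. The summed level of the microglial list was 1240 to 1460 CPM in the LPS+DMF libraries at 4 h and 1730 to 1860 in the LPS libraries at that time, and its part in the results below was not tested.

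The promoters of Srxn1, Prdx1 and Txnrd1 are shown because these 3 genes rose with DMF at both times and because each holds the core letters of the antioxidant response element, the DNA sequence that Nrf2 binds. The letters searched were TGACNNNGC on both strands, in windows of 300 bases (250 before and 50 after each RefSeq start site), and the match is in capitals, read here on the + strand. The windows come from a RefSeq table of build GRCm38.p6 and were placed on GRCm39 by exact sequence. The Srxn1 stretch lies just inside the transcript, at chr2:151947462-151947491. The Prdx1 stretch lies upstream of the start, at chr4:116542617-116542716, and the Txnrd1 stretch upstream of the second of 3 listed starts, at chr10:82694902-82695001.
Srxn1: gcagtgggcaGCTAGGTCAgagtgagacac
Prdx1: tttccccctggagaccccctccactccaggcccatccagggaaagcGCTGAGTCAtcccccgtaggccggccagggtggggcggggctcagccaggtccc
Txnrd1: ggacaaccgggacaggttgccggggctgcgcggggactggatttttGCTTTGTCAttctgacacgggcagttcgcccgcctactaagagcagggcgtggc

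The match began 29 bases after the start in Srxn1, 133 bases before it in Prdx1 (position -133) and 92 bases before it in Txnrd1 (position -92). Of the 10 windows listed for 8 of the genes, 3 held these letters, and 4071 of 32851 windows in the whole table (12.4%) did. The E-box letters CACGTG, searched because Txnip is a known target of glucose-sensing factors that bind them, were in 0 of the 10 windows and in 7.15% of all windows. Prdx6 had no window in the table. A match of letters is a description of the window and not a measured binding site.

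Levels below are read counts divided by size factors set over all 36 libraries (normalised read counts, given with the SD over 3 libraries). Levels of different genes were compared only as CPM per kilobase of merged exon. Only transcripts inside the deposited gene bounds were merged. The merged length was below that of the canonical transcript for Txn1 (624 against 790 bases), Prdx1 (2408 against 2673) and Srxn1 (4918 against 7203). On the merged scale Txn1 was the most abundant member, with a median of 536 over the libraries, followed by Prdx1 at 290. Prdx5 was at 134, Prdx6 at 111 and Prdx3 at 92.9. Srxn1 was the least abundant at 11.9, and Txnip (56.7), Txnrd1 (48.5) and Prdx2 (47.8) lay between. With the length of the canonical transcript in place of the merged exons, Txn1 and Prdx1 were still the highest and Srxn1 the lowest, while Txnrd1 moved above Prdx3.

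**Figure D1:**
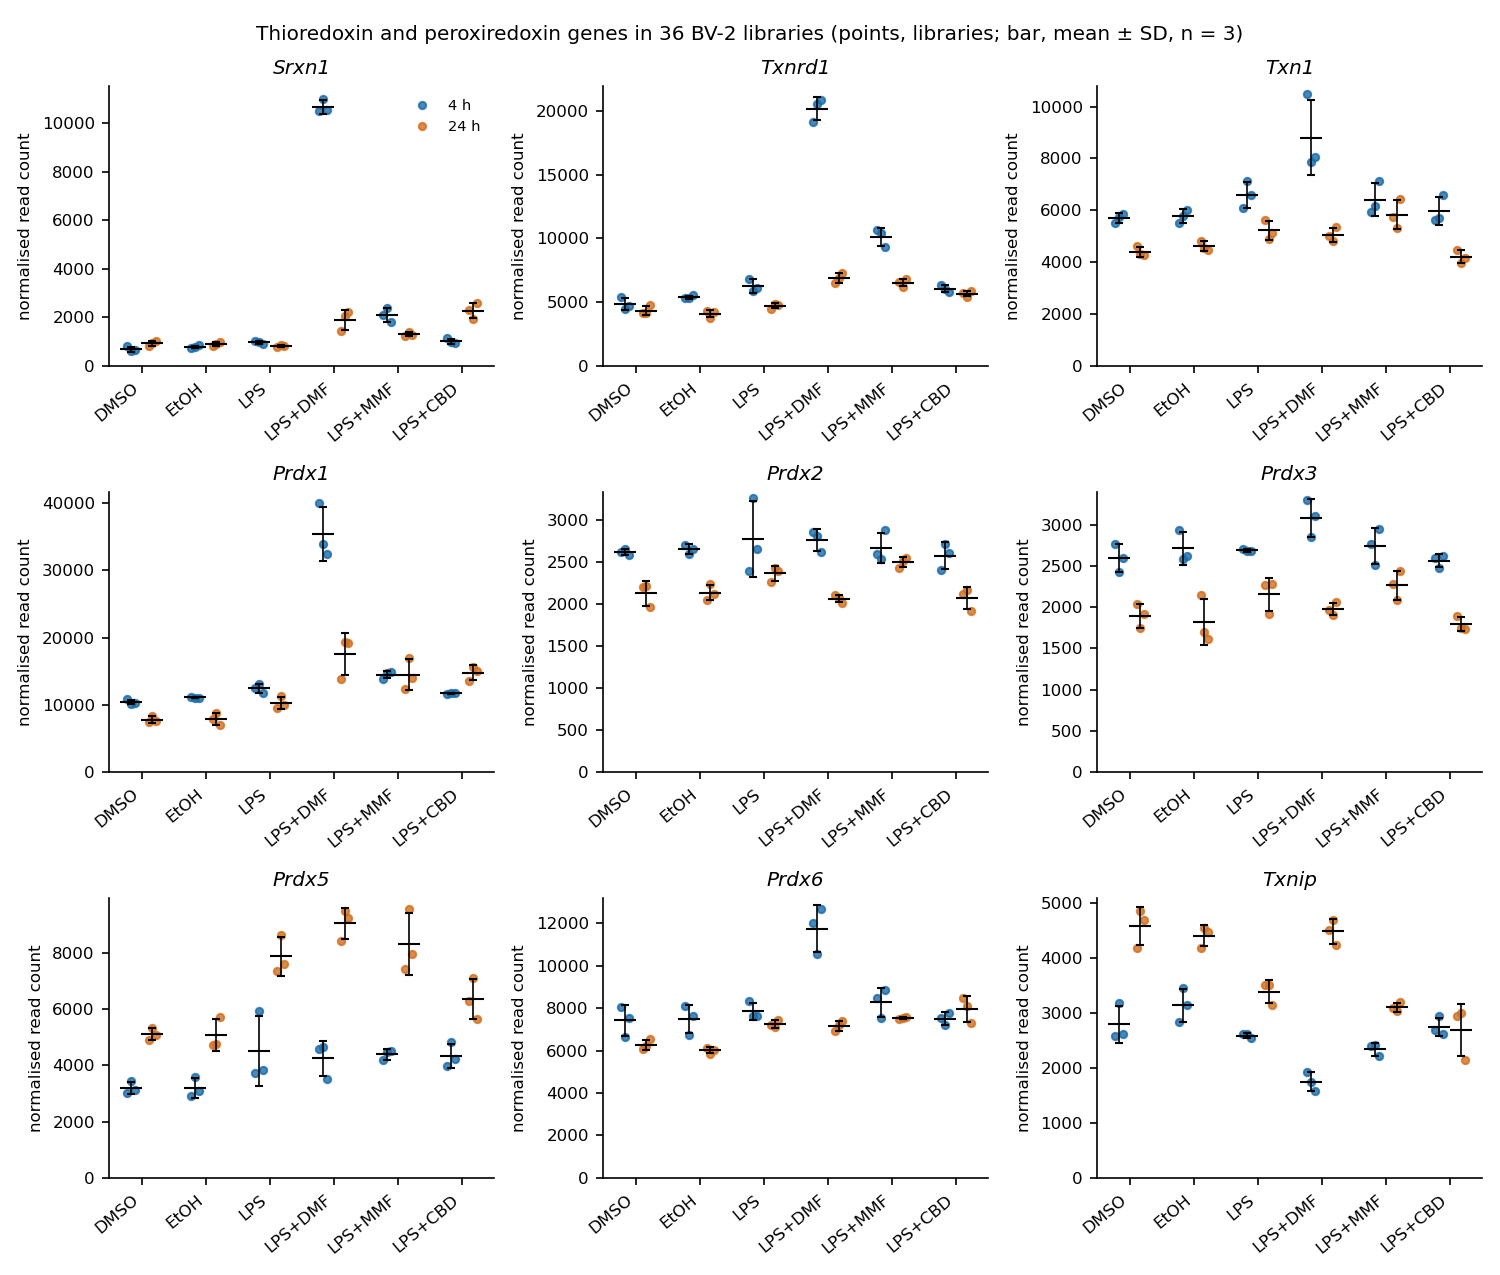
Normalised read counts of the 9 genes on linear axes from 0, with 1 point for each library at 4 h (blue) and 24 h (orange) in 6 treatments, and the mean ± SD of 3 libraries as a bar. Srxn1, Txnrd1, Prdx1 and Prdx6 peak in LPS+DMF at 4 h, where Txnip is lowest, while Prdx5 is higher at 24 h than at 4 h in every treatment.

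The widest range belonged to Srxn1, whose group means differed 15.6-fold between LPS+DMF at 4 h and DMSO at 4 h. Txnrd1 spanned 4.92-fold, Prdx1 4.54-fold, Prdx5 2.83-fold and Txnip 2.62-fold. The cytosolic Prdx2 and the mitochondrial Prdx3 were the steadiest, at 1.34-fold and 1.72-fold. LPS+DMF at 4 h was the highest group for 6 of the 9 genes and the lowest for Txnip.

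What DMF did to the system in activated microglia at 4 h was asked against LPS alone. The repair and recharging enzymes and 2 peroxiredoxins rose: Srxn1 about 11-fold, Txnrd1 and Prdx1 about 3-fold and Prdx6 about 1.5-fold. The inhibitor Txnip fell. Of the 9 members 5 were called, while 11.1% of the 11371 genes tested were called in either direction, and the median log2 fold change of the members was 0.40 against 0.0056 over all genes tested. In 7 of the 9 the 3 libraries of each group did not overlap, which held for 30.1% of all genes.

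Srxn1, the sulfiredoxin gene, was at 10501, 11020 and 10546 normalised read counts in the LPS+DMF libraries and at 1044, 969 and 901 in the LPS libraries. The lowest DMF library was thus far above the highest LPS library. The log2 fold change was 3.46 (SE 0.08, adjusted p = 1.21e-07, limma). Txnrd1 was at 19127, 20516 and 20865 with DMF and at 6854, 5843 and 6123 without it, again with no overlap. Its log2 fold change was 1.68 (SE 0.09, adjusted p = 1.99e-05), a 3.21-fold rise. Txn1, the substrate of that reductase, was at 10465, 7858 and 8063 with DMF and at 6103, 7118 and 6570 with LPS. The groups did not overlap, but DMF library 1 stood well above the other two and the difference was not called (log2 fold change 0.40, SE 0.12, adjusted p = 0.0638). It was called by DESeq2 (adjusted p = 0.0191) and with all 36 libraries in 1 fit (adjusted p = 0.00124).

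Among the peroxiredoxins, Prdx1, a cytosolic and nuclear enzyme, was at 40028, 33900 and 32381 with DMF and at 12490, 13147 and 11777 with LPS. All DMF libraries lay far above the LPS libraries, and the log2 fold change was 1.498 (SE 0.10, adjusted p = 7.29e-05), a 2.83-fold rise. Prdx6, which differs from the others in using a single catalytic cysteine, was at 12034, 10551 and 12678 with DMF and at 8325, 7627 and 7611 with LPS. It rose by 0.58 on the log2 scale (SE 0.09, adjusted p = 0.00422), and the groups were apart. Prdx3, Prdx2 and Prdx5 were not called, with log2 fold changes of 0.19 (adjusted p = 0.179), 0.0027 (adjusted p = 0.993) and -0.06 (adjusted p = 0.877). Prdx5 had 1 LPS library far from its group, at 5924 normalised read counts in library 2 and 3716 and 3834 in the others, and the log2 fold change without that library was 0.15 (adjusted p = 0.51).

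Txnip, the thioredoxin inhibitor, was at 1926, 1743 and 1575 with DMF and at 2610, 2614 and 2537 with LPS. Every DMF library lay below every LPS library, and Txnip fell by 0.57 on the log2 scale (SE 0.09, adjusted p = 0.00448), which is 1.49-fold lower. In a bulk library, fewer cells with a transcript and less of it per cell cannot be told apart. The 5 calls at 4 h held without each of the 6 libraries in turn.

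**Figure D2:**
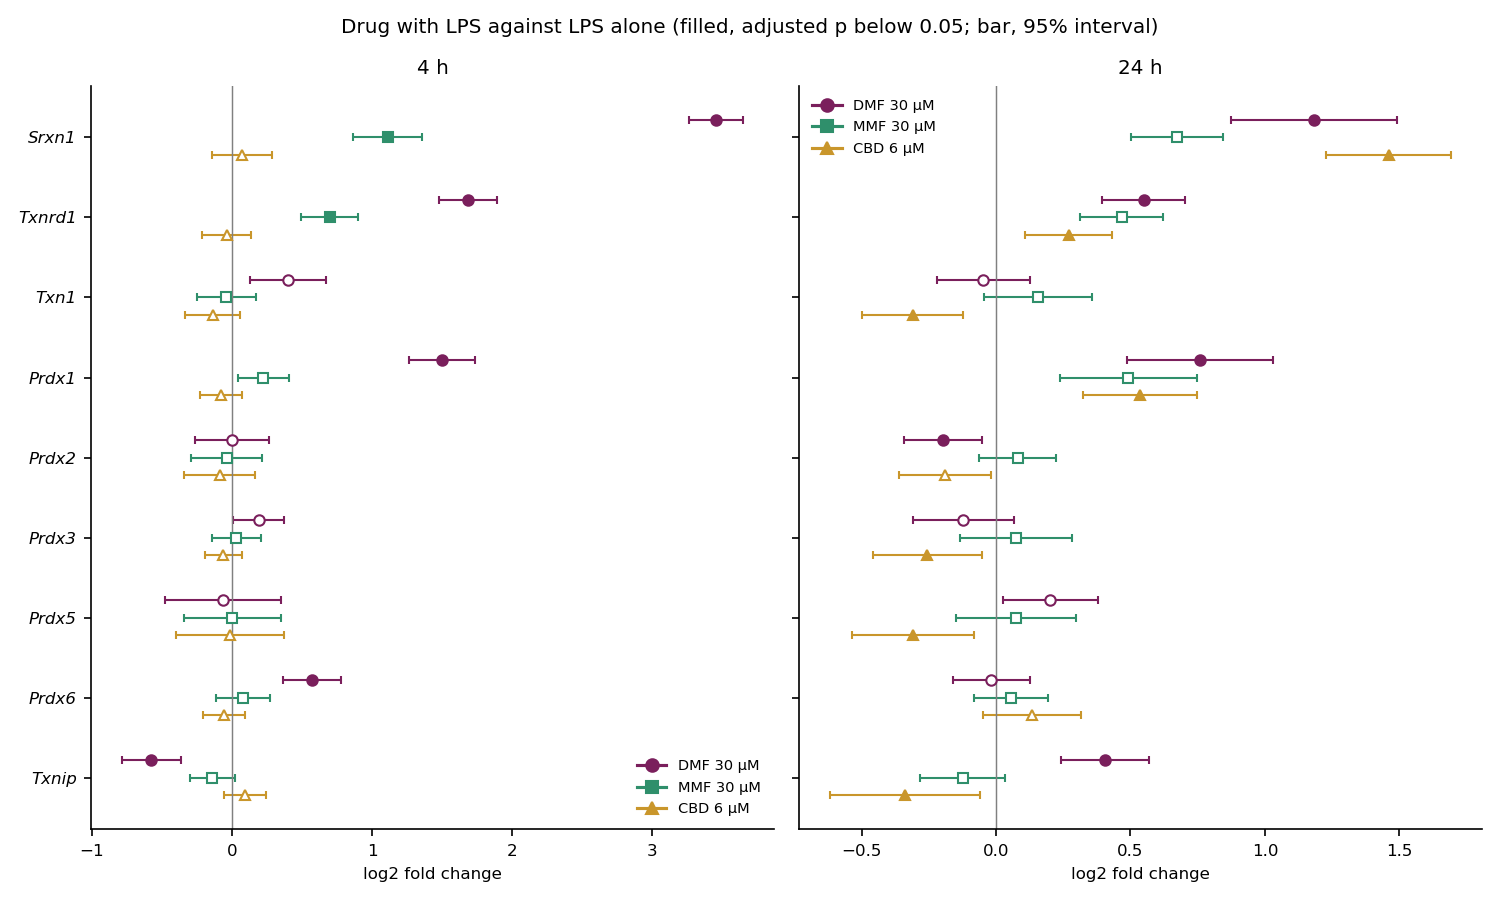
Log2 fold changes of the 9 genes for each drug with LPS against LPS alone at 4 h and 24 h (the axes differ), with 95% intervals from limma and filled symbols for adjusted p below 0.05. At 4 h Srxn1 reaches 3.46 with DMF and 1.11 with MMF and stays near 0 with CBD, whereas at 24 h it is 1.18, 0.67 and 1.46. MMF has no filled symbol at 24 h.

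MMF at the same dose and time moved fewer members and by less. Srxn1 rose 2.16-fold and Txnrd1 1.62-fold, and the other 7 members were not called. These were 2 of only 14 genes called among 11431 tested (0.122%), and the median log2 fold change of the members was 0.03. Srxn1 was at 2089, 2389 and 1821 normalised read counts, every value above the LPS libraries (log2 fold change 1.11, SE 0.11, adjusted p = 0.00958). Txnrd1 was at 10623, 10436 and 9319, also above all LPS libraries (log2 fold change 0.70, SE 0.09, adjusted p = 0.0268). The Srxn1 call was lost without LPS library 3 (adjusted p = 0.0813) or LPS+MMF library 1 (adjusted p = 0.0793), with log2 fold changes of 1.06 and 1.11 there. The Txnrd1 call was lost without LPS library 3 or any of the 3 LPS+MMF libraries (adjusted p = 0.11 to 0.24), though the log2 fold change stayed between 0.66 and 0.76 there. Prdx1 was at 13902, 14782 and 14807, above the LPS libraries but not called (log2 fold change 0.22, adjusted p = 0.58).

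DMF and MMF were then compared directly, since they differ by a methyl ester and were given at the same dose. The comparison was made at 2 time points, each adjusted over all genes. At 4 h, 6 members were called, against 8.34% of 11377 genes: Srxn1, Txnrd1, Prdx1, Prdx6 and Txn1 were higher with DMF and Txnip was lower. Srxn1 was 5.09-fold higher (log2 fold change 2.35, 95% interval 2.11 to 2.58, adjusted p = 6.74e-06). Prdx1 was 2.42-fold higher (log2 fold change 1.28, SE 0.10, adjusted p = 0.000168), and Txnrd1 was 1.98-fold higher (log2 fold change 0.99, 95% interval 0.79 to 1.19, adjusted p = 0.00036). Prdx6 (log2 fold change 0.50, 95% interval 0.28 to 0.71, adjusted p = 0.0125) and Txnip (-0.43, 95% interval -0.65 to -0.21, adjusted p = 0.0238) differed by less.

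With 1 library left out, some of these smaller differences were no longer called, in fits with fewer libraries. Prdx6 was not called without LPS+MMF library 2 or LPS+DMF library 3 (log2 fold changes 0.44 and 0.45, adjusted p = 0.0537 and 0.0705). Txnip was not called without LPS+DMF library 3 or any of the LPS+MMF libraries (log2 fold changes -0.48 to -0.35, adjusted p = 0.0565 to 0.118). The Txn1 call (log2 fold change 0.44, adjusted p = 0.0499) was lost without any library but LPS+DMF library 2 (log2 fold changes 0.31 to 0.52, adjusted p = 0.0768 to 0.161) and with no filter on low counts (adjusted p = 0.0622). For Prdx2, Prdx3 and Prdx5 no difference between the esters was called at 4 h, with 95% intervals of -0.15 to 0.23, -0.04 to 0.37 and -0.32 to 0.19 on the log2 scale.

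**Figure D3:**
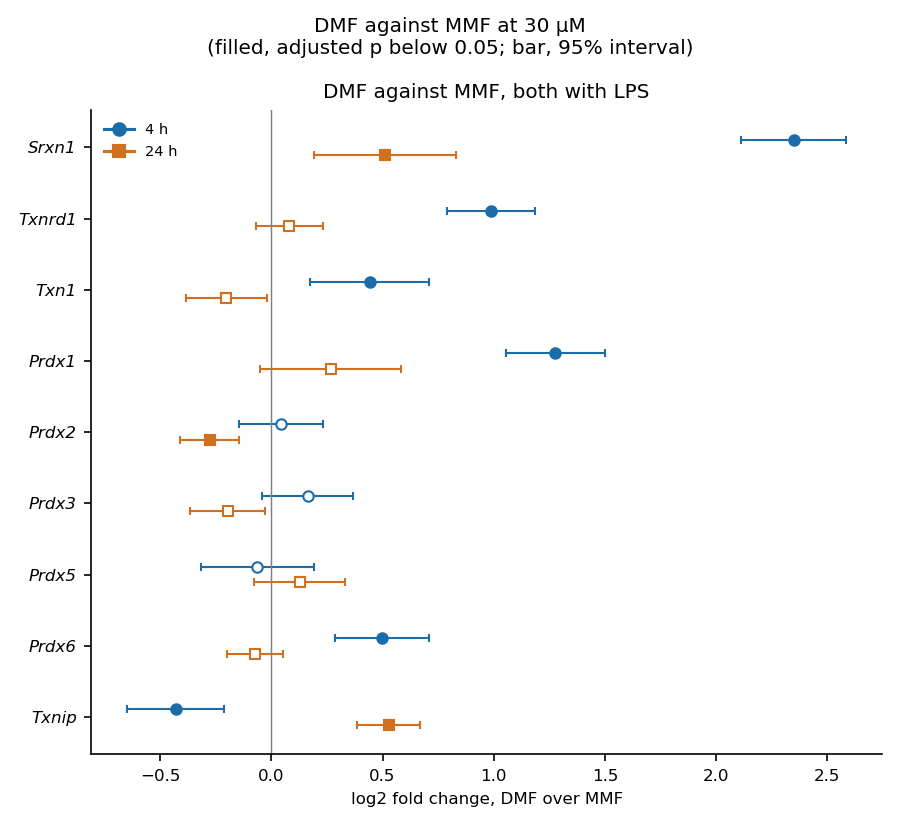
Log2 fold change of DMF over MMF for the 9 genes at 4 h (blue circles) and 24 h (orange squares), with 95% intervals from limma and filled symbols for adjusted p below 0.05. At 4 h Srxn1, Prdx1 and Txnrd1 lie between 0.99 and 2.35, and at 24 h Srxn1 is at 0.51. Txnip is at -0.43 at 4 h and at 0.53 at 24 h.

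CBD, given at 6 µM, was set beside the esters only as values, since the dose differed. At 4 h none of the 9 members was called against LPS, in a comparison in which limma called 1 of 11424 genes (0.00875%). The log2 fold changes ran from -0.14 for Txn1 to 0.09 for Txnip. Srxn1 was at 1141, 967 and 948, overlapping the LPS libraries, and its 95% interval was -0.14 to 0.29. Not 1 of the 9 members had an unadjusted p under 0.05, and none was called by edgeR or DESeq2.

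At 24 h DMF still raised Srxn1, Txnrd1 and Prdx1, by smaller factors than at 4 h, and Txnip was now higher with DMF than without. Of the 9 members 5 were called, beside 25.1% of 11670 genes. Srxn1 was at 1424, 2070 and 2214 with DMF and at 791, 854 and 824 with LPS. DMF library 1 was the lowest of the DMF group, yet the groups did not overlap (log2 fold change 1.18, SE 0.14, adjusted p = 0.000476). Txnrd1 was at 6511, 6926 and 7305 with DMF and at 4495, 4881 and 4786 with LPS (log2 fold change 0.55, SE 0.07, adjusted p = 0.000704). Prdx1 was at 13885, 19332 and 19267 with DMF and at 9525, 11288 and 9903 with LPS (log2 fold change 0.76, SE 0.12, adjusted p = 0.00217). All 3 of these genes rose with no overlap between the groups, as was so for 42.4% of all genes, and DMF library 1 was the lowest each time.

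Txnip at 24 h was at 4513, 4696 and 4242 with DMF and at 3504, 3510 and 3146 with LPS. The order of the groups was thus the opposite of that at 4 h, and Txnip rose by 0.40 on the log2 scale (SE 0.07, adjusted p = 0.00387). Prdx6, called at 4 h, differed by -0.02 on the log2 scale (adjusted p = 0.87) and Txn1 by -0.05 (adjusted p = 0.694). Prdx2 was called lower (log2 fold change -0.20, adjusted p = 0.0494), but not without any 1 of the 6 libraries (adjusted p = 0.0575 to 0.183), by edgeR (adjusted p = 0.056) or by DESeq2 (adjusted p = 0.0606). Prdx5 was not called (log2 fold change 0.20, adjusted p = 0.0868), but was with replicate number as a blocking factor (adjusted p = 0.0138) and without LPS library 2 (adjusted p = 0.0239).

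Whether the DMF effect changed from 4 h to 24 h was tested by an interaction term over 12 libraries, for which 16.3% of 11958 genes were called. It was called for 5 members. The effect was smaller at 24 h for Srxn1 (by -2.28 on the log2 scale, SE 0.18, adjusted p = 3.75e-06), Txnrd1 (-1.14, SE 0.12, adjusted p = 2.8e-05), Prdx1 (-0.74, SE 0.18, adjusted p = 0.0119) and Prdx6 (-0.60, SE 0.12, adjusted p = 0.00316). For Txnip it turned from lower to higher (0.98, SE 0.12, adjusted p = 0.000109). For Txn1 the difference was -0.45 (adjusted p = 0.0548), and a fit blocked on replicate number called it (adjusted p = 0.035) and also that of Prdx3 (-0.32, adjusted p = 0.0332 with the block and 0.0824 without). Without LPS+DMF library 2 at 4 h both were called (adjusted p = 0.0287 for Txn1 and 0.0461 for Prdx3). Without LPS library 2 at 4 h the Txn1 difference was called (adjusted p = 0.0383), and without LPS library 2 at 24 h that of Prdx3 (adjusted p = 0.0249).

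For MMF at 24 h none of the 9 members was called, and limma called 0 of 11584 genes (0%), with 440 at an unadjusted p under 0.05, where edgeR called 0 and DESeq2 17. Same-numbered libraries varied together at this time, and with replicate number as a blocking factor Srxn1, Txnrd1 and Prdx1 were called. The share of all genes called with the block is not given here, so these calls cannot be set beside it. Srxn1 was at 1240, 1414 and 1284 normalised read counts with MMF, against 791, 854 and 824 with LPS. Every MMF library lay above every LPS library, and the log2 fold change was 0.67 (SE 0.08, adjusted p = 0.0777 without the block and 4.63e-08 with it). It was also called without LPS library 2 (adjusted p = 0.0445). Txnrd1 was at 6585, 6206 and 6796 (log2 fold change 0.47, adjusted p = 0.166 without the block and 1.67e-06 with it), above all LPS libraries.

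Prdx1 with MMF at 24 h was at 12413, 17029 and 13996, above the LPS libraries of 9525, 11288 and 9903. Library 2 was the highest in both groups, and the log2 fold change was 0.49 (adjusted p = 0.807 without the block and 1.54e-06 with it). Without the block 4 of the 9 members had libraries that did not overlap, which held for 9.0% of all genes. The unadjusted p was under 0.05 for these 3 members alone, and DESeq2 called the same 3 (adjusted p = 4.35e-09 for Srxn1, 8.96e-06 for Txnrd1 and 0.0237 for Prdx1). The MMF effect did not pass the test of a difference between the times for any member, with a difference of -0.43 for Srxn1 (95% interval -0.73 to -0.14, adjusted p = 0.9997), and 0 of 11839 genes passed it (0%) by limma, edgeR or DESeq2, with 385 at an unadjusted p under 0.05 in limma.

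Between DMF and MMF at 24 h, 3 of the 9 members were called, while 21.5% of 11665 genes were. Txnip was 1.44-fold higher with DMF (log2 fold change 0.53, 95% interval 0.39 to 0.67, adjusted p = 0.000898). Srxn1 was 1.42-fold higher (log2 fold change 0.51, 95% interval 0.19 to 0.83, adjusted p = 0.0319), a call lost without LPS+MMF library 1 or 3 or LPS+DMF library 2 or 3 (adjusted p = 0.0924 to 0.133). Prdx2 was lower with DMF (log2 fold change -0.28, adjusted p = 0.0106), which was lost without LPS+DMF library 3 (adjusted p = 0.0623). For Txnrd1 the interval of the difference was -0.07 to 0.23, and no difference was called.

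With the replicate number as a block, 6 members were called between the esters at 24 h. The share of all genes called with the block is not given here, and the 21.5% is from the fit without it. The calls added were Prdx1 (log2 fold change 0.27, adjusted p = 0.00281), Txn1 (-0.20, adjusted p = 0.00429) and Prdx3 (-0.20, adjusted p = 0.00796). Without the block Prdx1 was called only when LPS+DMF library 1 was left out (adjusted p = 0.0285), at a log2 fold change of 0.42. Leaving out LPS+MMF library 2 brought calls for Txn1 (adjusted p = 0.0252), Prdx3 (adjusted p = 0.0215) and Prdx5 (adjusted p = 0.0457).

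With CBD at 24 h, 7 of the 9 members were called, in a comparison in which 48.7% of 11671 genes were. Srxn1, Prdx1 and Txnrd1 rose, while Txn1, Prdx5, Prdx3 and Txnip fell. Srxn1 was at 2289, 1950 and 2579 normalised read counts, above all LPS libraries (log2 fold change 1.46, SE 0.10, adjusted p = 1.06e-05), a 2.75-fold rise. Prdx1 was at 13598, 15683 and 15051 (log2 fold change 0.54, SE 0.10, adjusted p = 0.00148), and Txnrd1 at 5743, 5425 and 5852 (log2 fold change 0.27, SE 0.07, adjusted p = 0.0127). Neither overlapped the LPS libraries. Txn1 was at 4470, 3977 and 4158 with CBD and at 5642, 4911 and 5135 with LPS, and it fell by 0.31 on the log2 scale (SE 0.08, adjusted p = 0.0132) with the groups apart.

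Prdx5 was at 6281, 7082 and 5658 against 7358, 8641 and 7590 with LPS (log2 fold change -0.31, adjusted p = 0.0292), and its call was lost without LPS library 2 or 3 or CBD library 1 or 3 (log2 fold changes -0.33 to -0.23, adjusted p = 0.065 to 0.0948). Prdx3 (log2 fold change -0.26, adjusted p = 0.0398) lost its call without any library but LPS library 2 (log2 fold changes -0.29 to -0.21, adjusted p = 0.0536 to 0.147). Txnip was at 2941, 3000 and 2150 against 3504, 3510 and 3146, with CBD library 3 far below the other two. Its log2 fold change was -0.34 (adjusted p = 0.0463), which became -0.19 (adjusted p = 0.114) without that library, and the call was also lost without any 1 of the LPS libraries (adjusted p = 0.0663 to 0.12) or with edgeR (adjusted p = 0.0584). Prdx2 was not called (log2 fold change -0.19, adjusted p = 0.0633) but was with replicate number as a blocking factor (adjusted p = 0.0336), and Prdx6 was not (0.13, adjusted p = 0.2).

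The CBD effect differed between the times for Srxn1 (larger at 24 h by 1.39 on the log2 scale, SE 0.15, adjusted p = 2.18e-05) and Prdx1 (by 0.62, SE 0.12, adjusted p = 0.00155), in a test that called 32.0% of 11959 genes. It was also called for Txnrd1 (0.31, adjusted p = 0.038) and Txnip (-0.43, adjusted p = 0.0457), but with no filter on low counts neither was (adjusted p = 0.064 and 0.0638). The Txnrd1 difference was lost in 8 and the Txnip difference in 9 of 12 fits that left out 1 library (adjusted p = 0.0617 to 0.0913 and 0.0562 to 0.102). Those 8 were the fits without LPS library 1 or 3 at either time, CBD library 2 or 3 at 4 h, or CBD library 1 or 3 at 24 h. Those 9 were the fits without any LPS library but number 3 at 24 h, any CBD library at 4 h, or CBD library 3 at 24 h. Leaving out LPS library 2 brought calls for Prdx5 when it was the 4 h library (-0.51, adjusted p = 0.0162) and for Prdx3 when it was the 24 h library (-0.27, adjusted p = 0.036). All drug comparisons at a time share the same 3 LPS libraries.

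The 5 listed peroxiredoxins were also set against each other as shares of their summed reads per kilobase. Prdx1 held 43.6% ± 1.4 (SD, n = 3) of the sum in LPS at 4 h, 65.2% ± 1.64 in LPS+DMF and 47.0% ± 1.5 in LPS+MMF. At 24 h it held 35.6% ± 1.48 in LPS, 47.3% ± 3.76 in LPS+DMF and 47.4% ± 2.69 in LPS+CBD. The share of Prdx5, an enzyme found in mitochondria, peroxisomes and the cytosol, was 17.6% ± 3.44 in LPS at 4 h and 31.0% ± 1.19 at 24 h. Prdx2 was the smallest share in all 12 groups, at 4.06% to 8.47%. These shares depend on the exon lengths used and carry no test.

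**Figure D4:**
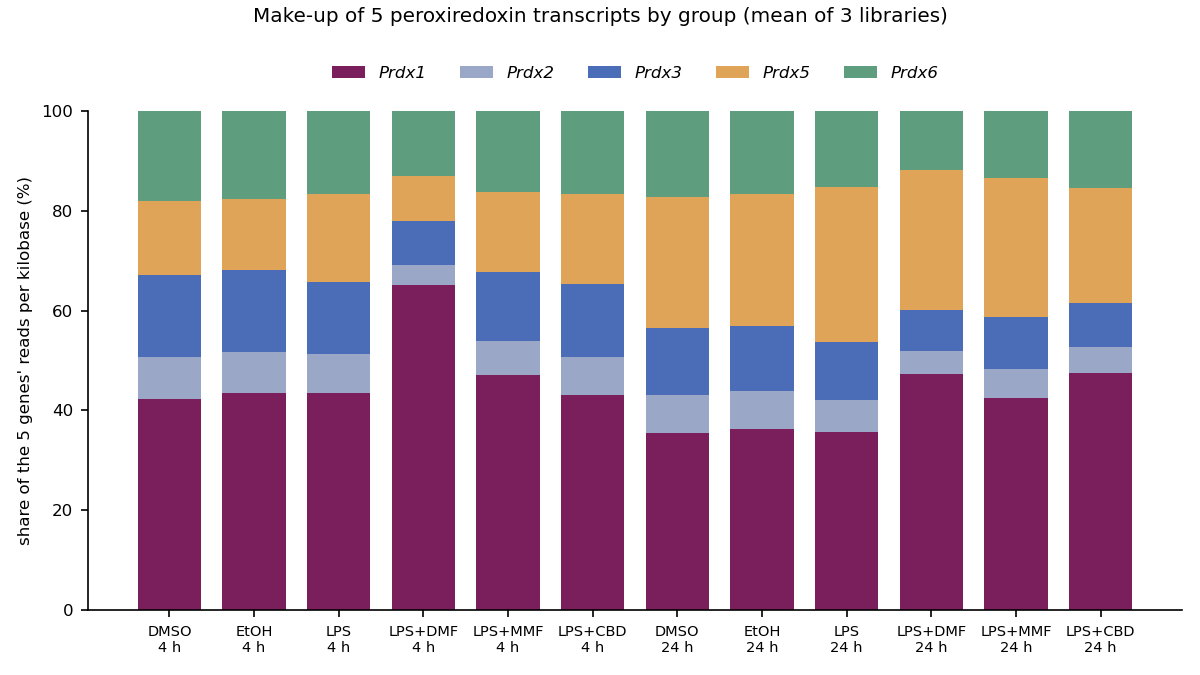
Stacked bars of the share (%) that each of 5 peroxiredoxin genes takes of their summed reads per kilobase, as the mean of 3 libraries in 12 groups, 4 h on the left and 24 h on the right. Prdx1 takes 65.2% in LPS+DMF at 4 h, and Prdx5 takes more at 24 h than at 4 h, with 31.0% in LPS at 24 h.

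LPS was compared with each vehicle, with no drug in either group, and LPS and the set of replicate numbers cannot be told apart here. At 4 h the changes were small. Against DMSO 3 members were called, Srxn1, Txnrd1 and Prdx1, beside 14.1% of 11424 genes, and against EtOH none was, beside 10.2% of 11491. Srxn1 was at 813, 603 and 638 normalised read counts with DMSO and at 757, 769 and 848 with EtOH, below the LPS libraries in both cases. Its log2 fold change was 0.51 against DMSO (SE 0.11, adjusted p = 0.0211) and 0.30 against EtOH (SE 0.08, adjusted p = 0.0587), and DESeq2 called the latter (adjusted p = 0.0421). Txnrd1 had log2 fold changes of 0.36 (adjusted p = 0.0286) and 0.22 (adjusted p = 0.0962), and Prdx1 of 0.25 (adjusted p = 0.0475) and 0.17 (adjusted p = 0.153).

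Against DMSO, Srxn1 lost its call without DMSO library 5 or 6 or LPS library 1 (log2 fold changes 0.43 to 0.47, adjusted p = 0.0583 to 0.0963). Txnrd1 lost its call without DMSO library 5 or 6 or LPS library 1 or 3 (log2 fold changes 0.30 to 0.38, adjusted p = 0.0745 to 0.127), and Prdx1 without any 1 of the 6 libraries (log2 fold changes 0.21 to 0.30, adjusted p = 0.0642 to 0.173) or with no filter (adjusted p = 0.0757). Against EtOH, Txnrd1 was called without LPS library 2 (adjusted p = 0.0376) and Txnip without EtOH library 4 (log2 fold change -0.35, adjusted p = 0.0461). In the EtOH comparison 6 members had libraries that did not overlap, which held for 31.4% of all genes. The same 6 had an unadjusted p under 0.05, from 0.00657 for Srxn1 to 0.0321 for Txn1, and edgeR called 0 members. DESeq2 called 3, which were Srxn1, Prdx5 and Txnip (adjusted p = 0.0307 for Txnip), beside 1407 of 11491 genes.

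Prdx5 at 4 h was at 3030, 3447 and 3106 with DMSO, at 2925, 3595 and 3068 with EtOH and at 3716, 5924 and 3834 with LPS. All LPS libraries were above all vehicle libraries, and the log2 fold changes of 0.45 and 0.46 were not called (adjusted p = 0.104 and 0.138). Without LPS library 2 they were 0.23 and 0.24 (adjusted p = 0.0746 and 0.131). DESeq2 called Prdx5 against both vehicles (adjusted p = 0.019 and 0.0344).

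**Figure D5:**
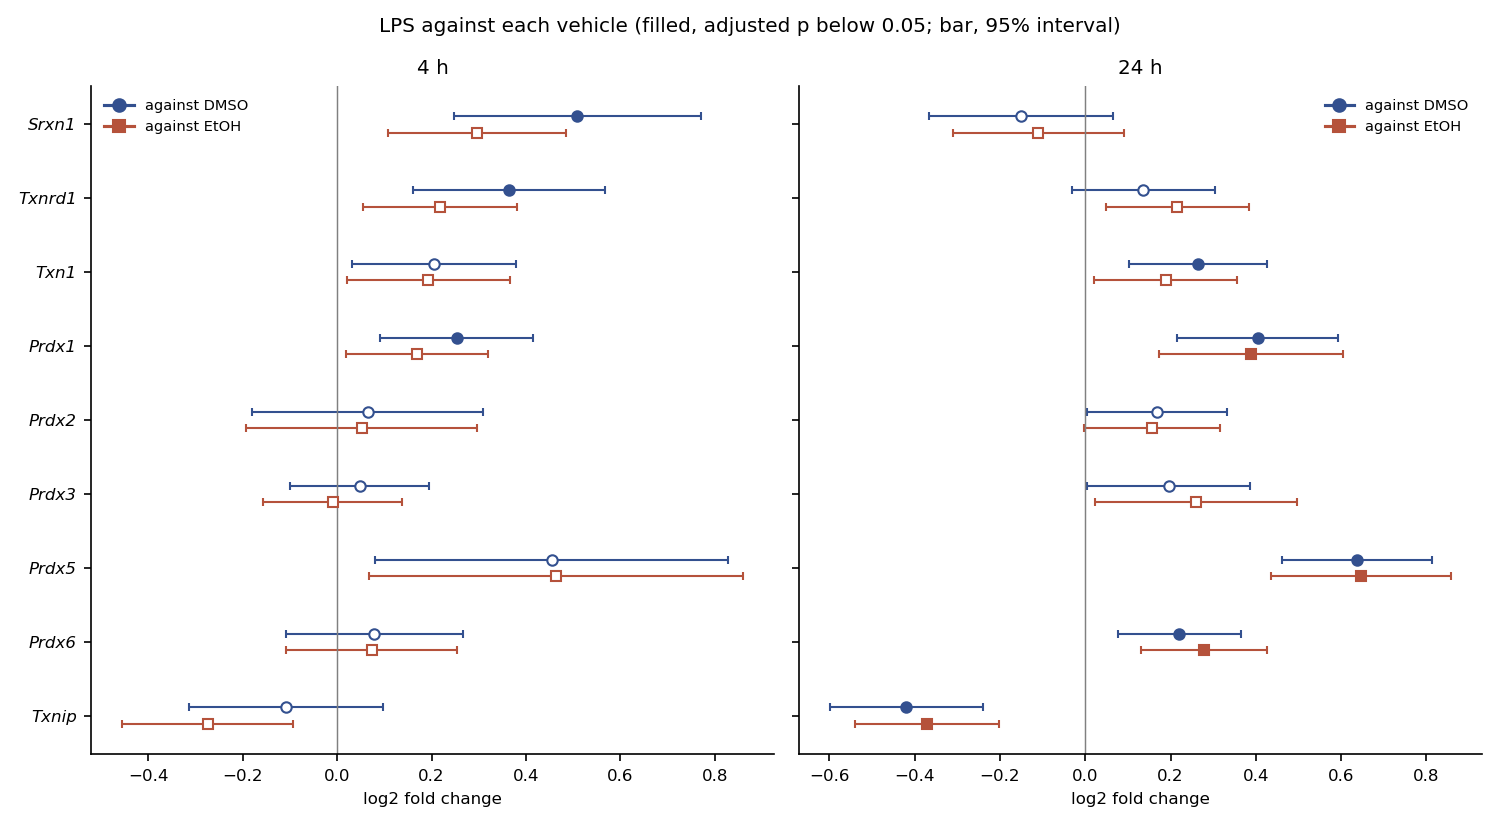
Log2 fold changes of the 9 genes for LPS against DMSO (blue circles) and EtOH (red squares) at 4 h and 24 h, with 95% intervals from limma and filled symbols for adjusted p below 0.05. Prdx5 is at 0.64 and 0.65 and Txnip at -0.42 and -0.37 at 24 h, and Srxn1 is at 0.51 and 0.30 at 4 h and below 0 at 24 h.

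At 24 h Prdx5, Prdx1 and Prdx6 rose with LPS against both vehicles, and Txnip fell. Against DMSO 5 members were called (22.7% of 11574 genes were) and against EtOH 4 (20.5% of 11775). Prdx5 was at 7358, 8641 and 7590 with LPS, at 4882, 5315 and 5090 with DMSO and at 4730, 4747 and 5716 with EtOH. The lowest LPS library was above the highest of either vehicle, and Prdx5 rose by 0.64 against DMSO (SE 0.08, adjusted p = 0.000233) and by 0.65 against EtOH (SE 0.10, adjusted p = 0.000653). Prdx1 rose by 0.40 (SE 0.09, adjusted p = 0.00618) and 0.39 (SE 0.10, adjusted p = 0.0164), the latter lost without EtOH library 6 or LPS library 3 (adjusted p = 0.0709 and 0.0515). Prdx6 rose by 0.22 (adjusted p = 0.0335) and 0.28 (adjusted p = 0.0131).

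The Prdx6 call against DMSO was lost without any library but LPS library 2 (adjusted p = 0.0519 to 0.127), and against EtOH without EtOH library 5 or LPS library 3 (adjusted p = 0.0784 and 0.0715). Txn1 was called against DMSO (log2 fold change 0.26, adjusted p = 0.0245) and not against EtOH (0.19, adjusted p = 0.107), and its call was lost without DMSO library 5 or 6 or LPS library 1 or 3 (adjusted p = 0.0685 to 0.103). Prdx3 was not called against either vehicle (adjusted p = 0.133 and 0.116). Without LPS library 2 it was (0.27 against DMSO, adjusted p = 0.0263, and 0.34 against EtOH, adjusted p = 0.0423), and against EtOH also without EtOH library 4 (adjusted p = 0.0191).

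Txnip at 24 h was at 3504, 3510 and 3146 with LPS, at 4185, 4849 and 4693 with DMSO and at 4189, 4551 and 4475 with EtOH. Every LPS library was below every vehicle library. Txnip fell by 0.42 against DMSO (SE 0.08, adjusted p = 0.00362) and by 0.37 against EtOH (SE 0.08, adjusted p = 0.0057). Srxn1 was not called at 24 h (log2 fold changes of -0.15 and -0.11, adjusted p = 0.305 and 0.444).

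The LPS effect on Srxn1 differed between the times, by -0.68 against DMSO (SE 0.16, adjusted p = 0.019) and by -0.41 against EtOH (SE 0.12, adjusted p = 0.0472), where 9.46% and 9.0% of genes were called. The first was lost without DMSO library 6 of 4 h or of 24 h (adjusted p = 0.0538 and 0.0563). The second was lost in 9 of 12 fits without 1 library, those without LPS library 1 or 2 at 4 h, any LPS library at 24 h, EtOH library 4 or 5 at 4 h, or EtOH library 5 or 6 at 24 h (adjusted p = 0.0512 to 0.116). The other members were not called, although against DMSO Txnip was without DMSO library 5 of 4 h (adjusted p = 0.0287) and Prdx5 without LPS library 2 of 4 h (adjusted p = 0.043). No member was called between DMSO and EtOH at 4 h or at 24 h. There limma called 0% of 11458 and 0.00854% of 11715 genes. None of the 9 members was called by edgeR or DESeq2, and none had an unadjusted p under 0.05 in limma. With the replicate number as a block, Txnip was called lower in DMSO at 4 h (log2 fold change -0.16, adjusted p = 0.0227 with the block and 0.67 without).

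The times were compared within each treatment. Prdx5 rose from 4 h to 24 h in all 6 treatments, by 0.54 on the log2 scale with LPS+CBD to 1.09 with LPS+DMF. Prdx3 fell in all 6 (log2 fold changes -0.65 to -0.28) and Txn1 in 5 of 6. Txnip rose in 5 of 6, by up to 1.36 with LPS+DMF, and had a log2 fold change of -0.05 with LPS+CBD (adjusted p = 0.724). Srxn1 went both ways, rising with LPS+CBD (1.14, SE 0.11, adjusted p = 1.85e-05) and falling with LPS+DMF (-2.52, SE 0.14, adjusted p = 2.36e-06) and LPS+MMF (-0.68, SE 0.10, adjusted p = 0.000304).

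Over the members 8 were called between the times with DMSO, 8 with EtOH, 7 with LPS, 9 with LPS+DMF, 5 with LPS+MMF and 6 with LPS+CBD. The shares of all genes called were 51.6%, 58.6%, 48.9%, 58.8%, 49.5% and 63.2% in that order, so a call between the times was common. Srxn1 was called higher at 24 h with DMSO (0.42, adjusted p = 0.0147) and lower with LPS (-0.24, adjusted p = 0.0412). The first was lost without DMSO library 6 at 4 h or library 5 or 6 at 24 h (adjusted p = 0.0509 to 0.0689), and the second without any 1 of the 6 libraries (adjusted p = 0.0529 to 0.152). Prdx1 fell with LPS (-0.29), a call lost without LPS library 1 or 3 of either time (adjusted p = 0.0556 to 0.104). Prdx6 fell with DMSO (-0.26), lost without DMSO library 4 or 6 of 4 h or 5 of 24 h (adjusted p = 0.0512 to 0.0621). Prdx3 fell with LPS+MMF (-0.28), lost without LPS+MMF library 1 or 3 of 4 h or 1 or 2 of 24 h (adjusted p = 0.0505 to 0.0766). The time points were separate cultures with no untreated start. Within 1 LPS or drug group taken alone, time in low serum and time with an agent cannot be told apart. The vehicle groups show the times without LPS or drug: Prdx5 had log2 fold changes of 0.65 with DMSO and 0.64 with EtOH, and Prdx3 of -0.48 and -0.60. The interaction tests above set the times with LPS beside those with each vehicle, and the times with each drug beside those with LPS.

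Another 24 genes of thiol redox control were counted beside the members, among them glutaredoxins, sestrins, the mitochondrial thioredoxin pair and the methionine sulfoxide reductases. With DMF at 4 h, 3 of the 24 (12.5%) were called, near the 11.1% of all genes called there. All 3 rose: Gsr, the glutathione reductase gene (log2 fold change 1.44, SE 0.09, adjusted p = 4.65e-05), Sesn2 (0.80, SE 0.21, adjusted p = 0.0417) and Txnrd3 (0.78, SE 0.11, adjusted p = 0.0029), the last named after its value was seen. With MMF at 4 h and 24 h and with CBD at 4 h, 0 of 23 tested were called. With DMF at 24 h, 3 of 23 rose and 4 fell (30.4% called, beside 25.1% of all genes), led by Sesn2 (0.89, SE 0.08, adjusted p = 9.17e-05) and Prdx4, the peroxiredoxin of the endoplasmic reticulum (-0.69, SE 0.12, adjusted p = 0.00339).

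With CBD at 24 h, 3 of 23 rose and 8 fell, so that 47.8% were called, near the 48.7% of all genes. Those that fell were led by Arrdc3 (-1.58, SE 0.29, adjusted p = 0.00166), a relative of Txnip, and the glutaredoxin gene Glrx (-1.49, SE 0.19, adjusted p = 0.000248). Glrx rose with LPS in all 4 comparisons with a vehicle, by 0.91 against DMSO (adjusted p = 0.00756) and 0.73 against EtOH (adjusted p = 0.0337) at 4 h and by 1.07 (adjusted p = 7.01e-05) and 0.73 (adjusted p = 0.000916) at 24 h. Sesn1 fell with LPS at 4 h, by 0.71 against DMSO (adjusted p = 0.00491) and 0.78 against EtOH (adjusted p = 0.00504). At 24 h Nxn was lower against DMSO (-0.56, adjusted p = 0.0148) and Arrdc3 against EtOH (-0.81, adjusted p = 0.000172). Of the 23 tested, 3 rose and 2 fell with LPS against DMSO at 4 h, 1 rose and 2 fell against EtOH at 4 h, and 3 rose and 3 fell against each vehicle at 24 h. The called shares were 21.7% and 13.0% at 4 h, beside 14.1% and 10.2% of all genes, and 26.1% at 24 h, beside 22.7% and 20.5%.

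The members fell into patterns over the 12 group means on the log2 scale, given as a description over groups that share a culture, times and agents. Srxn1, Txnrd1 and Prdx1 followed each other (Pearson's r 0.91 to 0.93 for the 3 pairs), and Prdx6 was close to them (r = 0.93 with Txnrd1, 0.92 with Prdx1 and 0.84 with Srxn1). LPS+DMF at 4 h stood far above the next group for Srxn1 (10689 against 2273), Txnrd1 (20169 against 10126) and Prdx1 (35436 against 17494). The r values without that group were not computed. Prdx2 and Prdx3 followed each other (r = 0.96), and Txn1 was close to both (r = 0.92 with Prdx3 and 0.87 with Prdx2) and also to Prdx6 (r = 0.82) and Txnrd1 (r = 0.81), so the sets were not separate. Prdx5 followed none of the others, with r from -0.61 with Prdx3 to 0.42 with Txnip. Txnip ran opposite to Prdx6 (r = -0.89).

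Among 10086 protein-coding genes with a mean level of at least 50, the 3 most like Srxn1 were Gclm (r = 0.98), Chpf2 and Blcap (r = 0.96 and 0.95). Gclm encodes a subunit of the enzyme that begins glutathione synthesis. Those most like Txnrd1 were Psmd11, Gsr and Psmd5 (r = 0.97, 0.96 and 0.94), and those most like Prdx1 were Psmd5, Cyb5a and Rab10 (r = 0.97, 0.97 and 0.96). Psmd11 and Psmd5 encode a subunit and an assembly factor of the proteasome. Txn1 was most like Uqcr10, Ndufs6 and Psma7 (r = 0.98, 0.97 and 0.97), the first and the second being respiratory chain subunits. Prdx2 was nearest to Ndufc1, Lsm7 and Dhx29 (r = 0.98, 0.98 and 0.97) and Prdx3 to Fam98a, Fam136a and Ppa1 (r = 0.99, 0.98 and 0.98). Prdx5 was nearest to Rab11a, Tbc1d10b and Secisbp2l (r = 0.99, 0.98 and 0.98), Prdx6 to Ilrun, Psmd11 and Gabarapl1 (r = 0.98, 0.96 and 0.95) and Txnip to Pdlim2, Tiam1 and Arhgap45 (r = 0.96, 0.96 and 0.95).

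Whether reads were counted by strand is not given in the sources used here. Prdx2 overlaps Junb and Rnaseh2a and Prdx5 overlaps Trmt112 on the opposite strand, and Txnrd1 overlaps Eid3 on its own strand, so reads in those stretches cannot be assigned to 1 gene with certainty. Txn1, Prdx1, Prdx2 and Prdx6 have processed copies (pseudogenes) in the mouse genome, and how reads shared with them were counted was not stated.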

How the data were processed

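The submitters' processing notes list FastQC 0.12.1, Cutadapt 4.4 and Trimmomatic 0.39 for quality and trimming of the paired-end reads, HISAT2 2.2.1 for alignment (build GRCm39), HTSeq 2.0.3 for read counts by Ensembl gene and DESeq2 1.40.2 for the authors' comparisons. The strand setting is not given in the sources used here. The deposited tables, 30 in all with 6 libraries each, hold a signal for each library, the read count divided by a size factor. Their log2 fold changes, SEs, Wald scores, p-values and adjusted p-values were made by the authors and were not used.

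Dividing each library column by its own step gave whole reads for 100% of 2305864 values (tolerance 0.01 read) in 155 of 180 columns. The other 25 had no step of their own, and their libraries were read from other tables. Library totals were 14.1 M to 26.7 M reads, and counting error limits low genes most.

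Tests were run with limma 3.58.1 in R 4.3.3 (lmFit, eBayes with trend) on log2 of the deposited normalised count plus 1, for the 6 libraries of each comparison. Genes with a count of 10 or more in at least 3 libraries were tested, and those with a Benjamini-Hochberg adjusted p below 0.05 over all of them were called. Fold changes are the first group over the second, on the scale of log2(count + 1). Interactions used 12 libraries with size factors over all 36. The scripts were tested on simulated data. Alternatives were edgeR 4.0.16 and DESeq2 1.42.0 on the recovered reads, TMM, a pseudocount of 5, no filter, all 36 libraries in 1 fit, a replicate block and leaving out each library.

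No main fit had a term for replicate number. The replicate block was an alternative, run wherever the groups compared shared replicate numbers. As a check of pairing, it was asked whether same-numbered libraries deviated together in all 3 pairs (correlation over 0.1). This held for DMF and CBD against LPS at 4 h, all 3 drugs against LPS and DMF against MMF at 24 h, both vehicle comparisons, and the times within LPS and within LPS+MMF. The labels do not say what the numbers mark. The members and lists were chosen with earlier results of these data known. Named genes were the 9 members, the 2 called genes of the other list with the largest change in each comparison of a drug or LPS, and the 3 genes most like each member. Promoter windows are from RefSeq, and exon lengths from GENCODE release M39 on GRCm39, for transcripts inside the deposited gene bounds.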

Additional observations from a re-analysis of the deposited data

Results flagged for a closer look

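In 11 cases the effect of an agent on a member differed between 24 h and 4 h by the limma interaction test (log2 effect at 24 h minus that at 4 h, 12 libraries each). For DMF these were Srxn1 (-2.28), Txnrd1 (-1.14), Prdx1 (-0.74), Prdx6 (-0.60) and Txnip (0.98), beside 16.3% of all genes called. For CBD they were Srxn1 (1.39), Prdx1 (0.62), Txnrd1 (0.31) and Txnip (-0.43), beside 32.0%. For LPS it was Srxn1, at -0.68 against DMSO and -0.41 against EtOH, beside 9.46% and 9.0%. The CBD differences of Txnrd1 and Txnip were lost in 8 and 9 of 12 fits without 1 library. Those of LPS were lost in 2 of 12 against DMSO and in 9 of 12 against EtOH. With no filter on low counts, the CBD differences of Txnrd1 and Txnip and the LPS difference against EtOH were also lost. Single libraries were not tested as outliers within groups of 3.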

How the results depend on the processing

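Counts of called members stayed within 1.5 times the count given for all results and settings but the following. With DESeq2, 3 members were called for LPS against EtOH at 4 h, beside 1407 of 11491 genes. It called 3 for MMF against LPS at 24 h, beside 17 of 11584 genes. With all 36 libraries in 1 fit these counts were 1 and 2, and limma called 0 in both. With no filter the counts were 1 for MMF against LPS at 24 h, 2 for the CBD effect between the times and 0 for the LPS effect against EtOH between the times. The replicate block gave 1 for DMSO against EtOH at 4 h, 3 for MMF against LPS at 24 h and 6 for DMF against MMF at 24 h. Beyond the calls given with a block above, only Txnrd1 between the times with DMSO, where the numbers share no pairing, changed its call with it (adjusted p = 0.04). No blocked fit was made for LPS against a vehicle, whose labels share no replicate numbers. The share of all genes called is not given here for the fits with all 36 libraries, no filter, the block or 1 library left out.

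Leaving out 1 library at a time, the counts ran at 4 h from 0 to 2 for MMF against LPS, 0 to 2 for LPS against DMSO, 0 to 1 for LPS against EtOH and 3 to 6 for DMF against MMF. At 24 h they ran from 0 to 1 for MMF against LPS, 4 to 6 for CBD against LPS, 3 to 6 for LPS against DMSO, 2 to 5 for LPS against EtOH and 1 to 6 for DMF against MMF. Between the times they ran from 2 to 4 for the CBD effect, 0 to 2 for the LPS effect against DMSO and 0 to 1 for that against EtOH. Over all genes, edgeR on the recovered reads called 1268 with DMF, 13 with MMF and 1 with CBD against LPS at 4 h, and 2948, 0 and 5705 at 24 h, each within 1.5 times the limma count. DESeq2 called 53 with MMF (limma 14) and 3 with CBD (limma 1) at 4 h, 17 with MMF at 24 h (limma 0), and 87 and 3 between DMSO and EtOH at 4 h and 24 h (limma 0 and 1). Fits without 1 library have fewer libraries, and the cause of the other changes was not tested.

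Over the single members, 1428 of 1476 values under other settings kept their call, 17 lost it, 31 gained one and 0 changed sign while called. Without 1 library 1483 of 1620 kept it, 115 lost it and 22 gained one. Srxn1, the least abundant member, had 1960 reads or more in each group of 3 libraries, and the part of depth in the calls was not tested.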
